A study of Mus musculus with 2 samples.

Results

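The 8 genes described here encode proteins that start, carry out or restrain programmed cell death: the caspases Casp1, Casp2, Casp6, Casp8 and Casp9, the caspase-activating scaffold Apaf1, and the inhibitors Xiap and Cflar. They were taken by gene symbol, as a list, from the 51831 genes of the deposited table, and all 8 were found and expressed. Caspases are cysteine proteases that are made as inactive precursors. Initiator caspases are activated on large scaffolds, either below death receptors at the cell surface or around cytochrome c released from mitochondria, and then cleave executioner caspases, which dismantle the cell. In B cells these routes remove cells with damaged DNA or with unwanted antigen receptors, and inhibitors such as Xiap and Cflar hold them back.

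The RNA came from CH12F3, a B cell lymphoma line of the mouse that is widely used to study antibody class switching, and from CH12F3 cells labelled Lig4-/-, named for loss of Lig4, whose product joins DNA ends in nonhomologous end joining. Both lines were grown in RPMI medium with fetal bovine serum, and the labels name no treatment, time point or age. The sources used here do not say how the Lig4-/- line was made or whether it is 1 clone. Each line is represented by 1 library, so no spread could be estimated and no test was made. Every value below describes these 2 libraries, and in bulk RNA of this kind fewer cells with a transcript and less of it per cell cannot be told apart.

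The deposited values are FPKM, fragments per kilobase of transcript scaled to the mapped fragments of the library, which put genes of unlike length on one scale. The log2 ratio moved with GC content, as described below, so levels of genes of unlike GC content are compared less surely. The log2 ratio used throughout is log2 of (FPKM in the library labelled Lig4-/- + 1) over (FPKM in the CH12F3 library + 1), so positive values are higher in the library labelled Lig4-/-. Genes with a mean FPKM of at least 1 over both libraries, 11437 in all, were called expressed, and their median log2 ratio was 0.17. Lig4 itself had 0.13 FPKM in CH12F3 and 0.64 FPKM in the library labelled Lig4-/-, so its level does not check the label and all directions rest on the label alone. All 7 B cell markers examined were expressed, at 3.28 FPKM or more in each library. Ms4a1 (3.28 and 22.7 FPKM) and Cd79a (135 and 331 FPKM) were higher by 2-fold or more in the library labelled Lig4-/-. Cd79b (1187 and 481 FPKM) was lower by as much, and the others were within 2-fold. Of the 4 T cell markers 2 were expressed, and their sum was 2.31 and 4.46 FPKM over all 4. The 5 myeloid markers, of which 4 were expressed, summed to 5.25 and 9.77 FPKM, with Cd14 at 0 in both. The 3 fibroblast markers, of which 0 were expressed, summed to 0.92 and 0.70 FPKM. Read depth is unknown, so no value carries a counting interval.

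The caspases share a catalytic cysteine, and Cflar is a relative of Casp8 without one. To show how the members differ at this site, 33 coding bases around it are printed from the GENCODE M21 transcripts (GRCm38), 5′ to 3′ on the coding strand, with the catalytic cysteine codon in capitals. For Cflar the capitals mark the codon at the same distance from a glutamine codon that it shares with Casp8, and this codon is for tyrosine.
Casp1: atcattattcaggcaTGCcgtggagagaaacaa
Casp2: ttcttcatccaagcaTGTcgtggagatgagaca
Casp6: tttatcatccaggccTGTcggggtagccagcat
Casp8: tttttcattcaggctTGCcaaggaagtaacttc
Casp9: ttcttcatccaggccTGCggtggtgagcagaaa
Cflar: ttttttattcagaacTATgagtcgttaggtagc
The cysteine codon is number 284 of Casp1 (chromosome 9, plus strand, chr9:5303765-5303767), 320 of Casp2 (chr6:42276776-42276778), 146 of Casp6 (chr3:129912121-129912123), 382 of Casp8 (chr1:58844619-58844621) and 325 of Casp9 (chr4:141807253-141807255), each counted from 1 at the start of the longest annotated coding sequence. The Cflar codon is number 365 (chr1:58752623-58752625), also on the plus strand. In an alignment of 427 residues encoded by Casp8 and Cflar, 32.3% were identical. FPKM is 1 value per gene, so the table does not show which isoforms, with or without these sites, were present.

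Casp8 had the highest level of the 8 genes and Xiap the lowest in both libraries. In the CH12F3 library the order from high to low was Casp8, Casp1, Cflar, Casp9, Casp2, Casp6, Apaf1 and Xiap, and the levels spanned 24.6-fold, from 1.24 to 30.54 FPKM. In the library labelled Lig4-/- it was Casp8, Casp1, Casp6, Cflar, Casp2, Apaf1, Casp9 and Xiap, and the levels spanned 5.09-fold, from 8.30 to 42.2 FPKM. From Casp6 down to Casp9 the 5 levels in that library lay between 11.57 and 13.42 FPKM. With 1 library a line, it cannot be said which neighbours in either order differ beyond their spread. The summed level of the 8 genes was 96.5 FPKM in CH12F3, against 133 FPKM in the library labelled Lig4-/-.

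**Figure D1:**
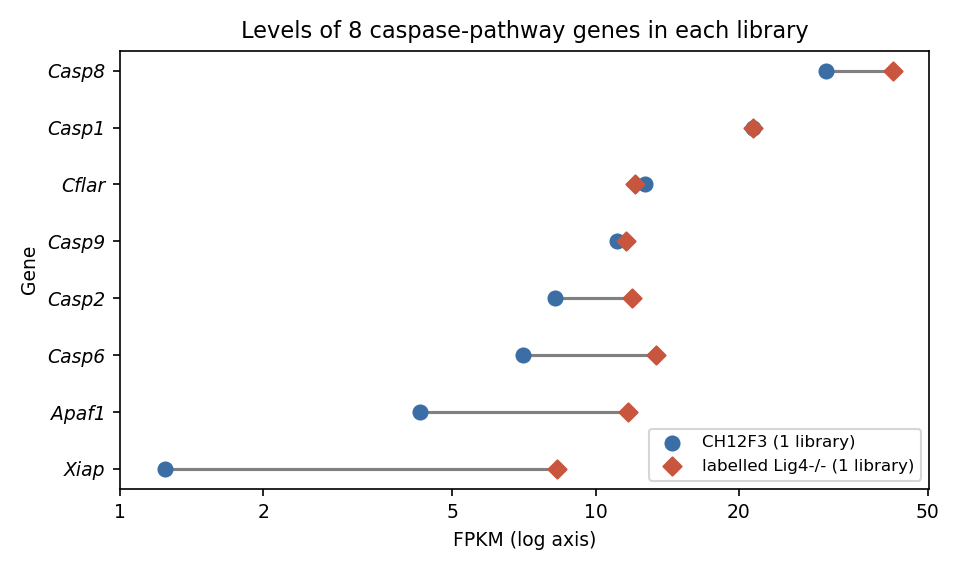
FPKM of each gene (log axis) in the CH12F3 library (circles) and in the library labelled Lig4-/- (diamonds), 1 library each, with a line joining the pair of values. Xiap, at 1.24 and 8.30 FPKM, has the longest line, and the symbols of Casp1, at 21.44 and 21.47 FPKM, coincide.

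The death receptor route is represented by Casp8 and Cflar, which lie side by side on chromosome 1, on the same strand and 36489 bases apart. Casp8 (ENSMUSG00000026029, chr1:58795374-58847503), the initiator recruited to death receptors through the adaptor Fadd, was at 30.54 FPKM in the CH12F3 library and 42.23 FPKM in the one labelled Lig4-/-. This is a log2 ratio of 0.45. Cflar (ENSMUSG00000026031, chr1:58711508-58758884), which encodes the FLIP proteins that compete with or limit Casp8 on that scaffold, was at 12.71 and 12.08 FPKM, a log2 ratio of -0.07. Both were therefore within 2-fold, Casp8 higher and Cflar close to equal. The Casp8 level was 2.40 times that of Cflar in CH12F3 and 3.50 times in the library labelled Lig4-/-, a ratio 1.45 times as large. Relative to other expressed genes, Casp8 was above 71.2% of them in CH12F3, against 76.9% in the library labelled Lig4-/-. Cflar was above 52.9% and 44.9%.

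The mitochondrial route is represented by Casp9 and Apaf1, whose products form the apoptosome once cytochrome c binds Apaf1. Apaf1 (ENSMUSG00000019979, chr10:90989311-91082770, minus strand) was at 4.27 FPKM in the CH12F3 library and 11.69 FPKM in the library labelled Lig4-/-, 2.74 times as high, with a log2 ratio of 1.27. Casp9 (ENSMUSG00000028914, chr4:141793612-141815976), the initiator it activates, was at 11.09 and 11.57 FPKM, a log2 ratio of 0.06. In the deposited values the scaffold was thus beyond 2-fold and its caspase nearly equal, but Apaf1 was within 2-fold with a pseudocount of 5 FPKM (0.85) and under all 4 adjustments for GC content (0.36 to 0.66). The level of Casp9 was 2.60 times that of Apaf1 in CH12F3, but 0.990 times in the library labelled Lig4-/-. Exons of Casp9 share 94 bases with those of Cela2a and Ctrc on the opposite strand, and both of these were listed at 0 in both libraries.

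Casp2, Casp6 and Casp1 stand for 3 other settings in which caspases act. Casp2 (ENSMUSG00000029863, chr6:42264985-42282508), an initiator activated by the PIDD complex, was at 8.22 FPKM in CH12F3 and 11.92 FPKM in the library labelled Lig4-/- (log2 ratio 0.49). Casp6 (ENSMUSG00000027997, chr3:129901425-129914103), an executioner known for cleaving nuclear lamins, was at 7.02 and 13.42 FPKM (log2 ratio 0.85). It was 1.91 times as high on the plain FPKM scale and so just under 2-fold. Casp1 (ENSMUSG00000025888, chr9:5298517-5307265), the inflammatory caspase that matures interleukin-1 beta on inflammasomes, was at 21.44 and 21.47 FPKM, the closest pair of values among the 8 genes (log2 ratio 0.0019). All 3 were within 2-fold, and none was lower in the library labelled Lig4-/-.

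Xiap (ENSMUSG00000025860, chrX:42059679-42109656), a ubiquitin ligase that binds and blocks active caspases, Casp9 among them, differed most of the 8 genes. It was at 1.24 FPKM in the CH12F3 library and 8.30 FPKM in the library labelled Lig4-/-, 6.69 times as high, with a log2 ratio of 2.05. Xiap was above 8.36% of expressed genes in CH12F3 and above 35.0% in the other library. The level of Casp9 was 8.94 times that of Xiap in CH12F3 and 1.39 times in the library labelled Lig4-/-, and that of Apaf1 was 3.44 and 1.41 times. These ratios set genes of unlike GC content side by side, and after an adjustment for transcript GC content the log2 ratios of Xiap, Apaf1 and Casp9 lay closer together, at 0.50, 0.66 and 0.21. Its CH12F3 value is low, and the log2 ratio was 2.65 with a pseudocount of 0.1 FPKM and 1.09 with 5 FPKM. Xiap also has the transcript richest in A and T of the 8, with a GC content of 36.8% and a 3′ untranslated region of 4672 bases.

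Of the 8 genes, 2, Apaf1 and Xiap, were higher by 2-fold or more in the library labelled Lig4-/- and none was lower by as much. Among all expressed genes 21.0% were higher and 4.09% lower by 2-fold or more, so 2 of 8 is near the background. The median log2 ratio of the 8 genes was 0.47, against 0.17 over all expressed genes. Above 0 were 7 of the 8, and 6663 of the 11437 expressed genes. After the adjustment for transcript GC content given below, 5 of the 8 and 5610 of 11404 expressed genes were above 0. Of the genes apart by 2-fold or more, 83.7% were higher in the library labelled Lig4-/-, 70.7% were with the overall median log2 ratio set to 0, and 49.1% to 59.9% were under the 4 adjustments for GC content. With that median at 0, Casp9 (-0.11) and Casp1 (-0.17) lay below 0, and Apaf1 and Xiap remained higher by 2-fold or more.

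Across all expressed genes the log2 ratio moved with the GC content of the transcript, and this bears on each member. In the decile of genes with the lowest GC content 68.4% were higher by 2-fold or more in the library labelled Lig4-/-. That decile holds Xiap and Casp1, which differ widely: the log2 ratio of Xiap was above that of 84.0% of the genes in the decile, and that of Casp1 above only 5.61%. In the decile of Apaf1 and Cflar, with GC contents of 46.0% and 44.4%, 34.6% of genes were higher by 2-fold or more. Apaf1 stood above 80.2% of that decile and Cflar above 13.3%. Casp2 (47.7% GC) and Casp8 (46.6% GC) stood near the middle of their decile, above 48.9% and 46.2% of it, and 23.0% of its genes were higher by 2-fold or more. Casp6 (48.6% GC) stood above 80.6% of its decile, in which 13.8% were higher by 2-fold or more. That GC content is of a transcript with a retained intron. The coding transcript of Casp6, at 46.2%, lies in the GC range of the decile of Casp2 and Casp8, and the standing of Casp6 there was not computed. For Casp8 and Cflar the transcripts with the longest coding sequence have GC contents of 48.6% and 49.2%. Both lie in the GC range of the decile given for Casp6, and their standing there was not computed. Casp9, the member richest in G and C (53.4%), stood above 65.2% of its decile, in which 3.59% were higher by 2-fold or more.

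**Figure D2:**
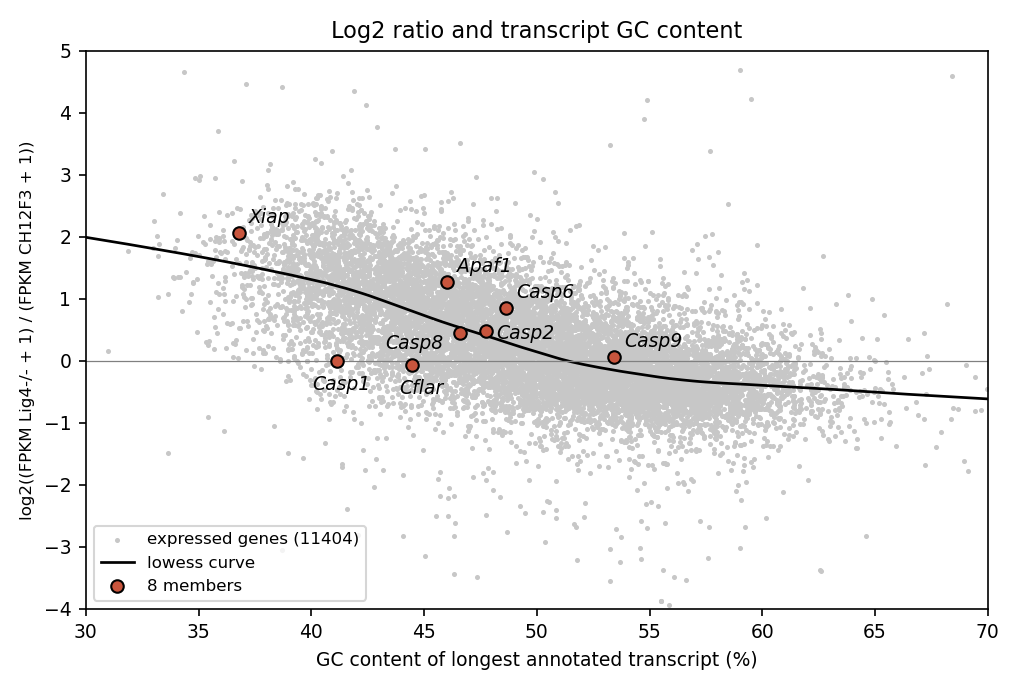
Log2 ratio (vertical axis) against the GC content of the longest annotated transcript (horizontal axis, percent) for expressed genes (grey), with a smooth lowess curve (black) and the 8 genes (red); 31 genes lie outside the axes. Xiap, Apaf1 and Casp6 lie above the curve, Casp2 and Casp8 on or near it, Casp9 slightly above, and Casp1 and Cflar below.

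Subtracting the curve gives each gene's log2 ratio relative to genes of like GC content. Xiap was then at 0.50, Apaf1 at 0.66, Casp6 at 0.55, Casp9 at 0.21, Casp2 at 0.08, Casp8 at -0.08, Cflar at -0.87 and Casp1 at -1.21. None of the 8 was then higher by 2-fold or more and 1, Casp1, was lower by 2-fold or more, where 5.76% and 5.98% of expressed genes were higher and lower. The 2 members beyond 2-fold in the deposited values were thus within 2-fold of genes of like GC content, and the member with equal FPKM in both libraries was beyond it. The median of the 8 became 0.14. For Casp6 the longest annotated transcript is one with a retained intron; with the GC content of its coding transcript, 46.2%, in place of 48.6%, and the same choice made for all genes, its value was 0.15. By that choice Casp1 was at -1.36 and Xiap at 0.24, while Cflar was at -0.38.

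**Figure D3:**
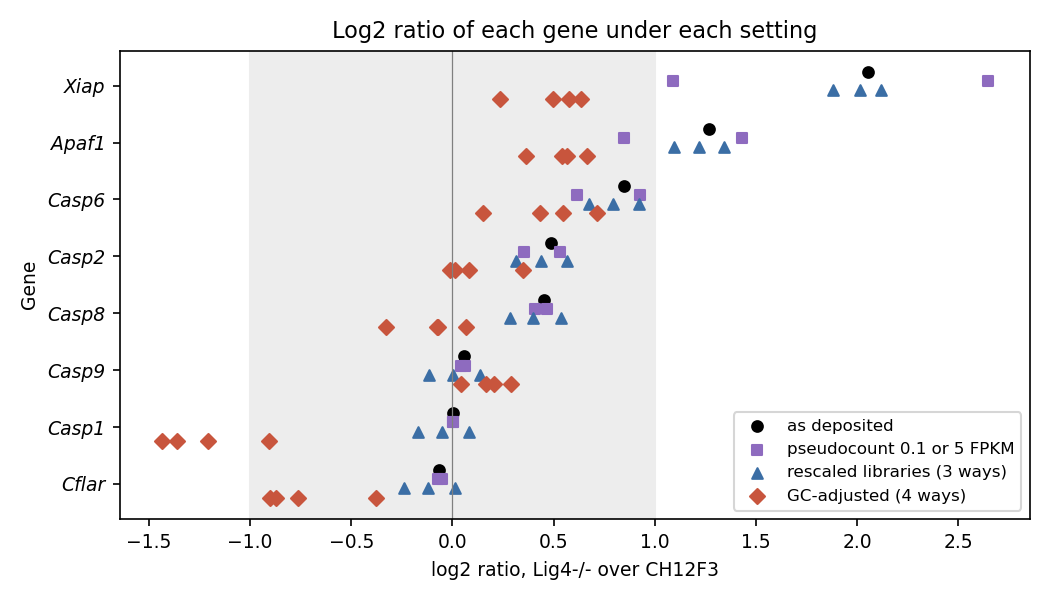
Log2 ratio of each gene as deposited (circles), with other pseudocounts (squares), with the libraries rescaled (triangles) and with adjustments for GC content (diamonds); the grey band marks values within 2-fold. Xiap and Apaf1 move into the band under every adjustment for GC content, and Casp1 leaves it under 3 of the 4, its values running from -1.44 to -0.91.

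The 8 genes act together with many others, of which 53 are compared here by role. Of these, 38 were expressed, and 8 were higher and 2 lower by 2-fold or more in the library labelled Lig4-/-, near the background shares of 21.0% and 4.09% for higher and lower. Their median log2 ratio was 0.20, and 4 were higher and 5 lower after the adjustment for GC content, where 5.76% and 5.98% of all expressed genes were and the median of the 38 was -0.08. By role, the median log2 ratio and the median after the adjustment were 0.91 and 0.28 over 5 inflammasome genes, which ran from -1.90 to 1.79. They were 0.57 and 0.64 over 5 caspase substrates, 0.30 and -0.22 over 8 genes of the inhibitor family with Xaf1, and 0.015 and 0.0090 over 5 mitochondrial factors. They were -0.14 and -0.21 over 8 adaptors, -0.23 and -0.03 over 3 necroptosis genes, and -0.66 and -0.28 over 3 death receptors and ligands. The adjustment thus changed the order of the roles, and the sign of the median for the inhibitor family with Xaf1. In that set the adjusted values were mixed, from -0.92 for Xaf1 to 1.21 for Birc6. The values of Naip2, Naip5 and Naip6, which enter the median, are uncertain.

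Of the 3 other caspases compared here, 1 was expressed. Casp4, which senses bacterial lipopolysaccharide inside cells and lies 1562 bases from Casp1, was at 4.81 FPKM in CH12F3 and 13.7 FPKM in the library labelled Lig4-/- (log2 ratio 1.34, adjusted -0.12). Casp4 and Casp1 are neighbours with similar GC contents of 38.1% and 41.1%, yet Casp4 was higher by 2-fold or more and Casp1 equal. With a pseudocount of 5 FPKM Casp4 was within 2-fold (0.93). Casp12 was at 0 and 0.04 FPKM and Casp14 was listed at 0 in both libraries.

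The list of the inhibitor family of Xiap, in which Xaf1 is also counted, held 10 further genes, of which 8 were expressed. Of these 8, 2 were higher by 2-fold or more and none was lower by as much. This share is near the 21.0% of all expressed genes. After the adjustment 6 of the 8 lay below 0, Xaf1, Naip2, Naip5 and Naip6 among them, as did 5794 of 11404 expressed genes. Birc3, a ubiquitin ligase of NF-kB signalling, was at 17.6 and 60.5 FPKM (log2 ratio 1.72, adjusted 1.18). Birc6, which encodes a very large ubiquitin-conjugating protein, was at 4.79 and 18.7 FPKM (1.77, adjusted 1.21). Unlike Xiap, both were higher by 2-fold or more after the adjustment as well, as were 5.76% of all expressed genes. Birc6 was, however, at 0.98 under 2 other forms of the adjustment. Birc2, the close relative of Birc3, was at 16.6 and 17.6 FPKM (0.08, adjusted -0.91). Birc5, known as survivin and best known for its role in mitosis, was at 117 and 135 FPKM, and Xaf1, which encodes a partner of Xiap that opposes it, was at 7.61 and 5.19 FPKM. The Naip genes are near-identical copies, and reads may have been split among them, so their single values are uncertain.

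Upstream of Casp8, death receptors and ligands were mostly low: 3 of 8 were expressed. With the pseudocount of 1 FPKM none was apart by 2-fold or more. The receptor gene Fas was at 10.0 FPKM in CH12F3 and 5.85 FPKM in the library labelled Lig4-/- (log2 ratio -0.68), and at -1.55 after the adjustment. Tnf was at 33.5 and 45.3 FPKM (0.42). Tnfrsf25 was at 2.34 and 1.11 FPKM (-0.66), more than 2-fold apart on the plain FPKM scale. Of the 8 adaptors, all expressed, Fadd was at 4.49 and 3.39 FPKM and Ripk1 at 5.39 and 9.0 FPKM. Casp8ap2, which encodes a large Casp8-associated protein also needed for histone mRNA, was the 1 adaptor higher by 2-fold or more, at 2.52 and 8.20 FPKM (1.39, adjusted 0.16). With a pseudocount of 5 FPKM Casp8ap2 was within 2-fold (0.81). Dedd, which carries a death effector domain, was at 45.9 and 34.1 FPKM (-0.42) and at -1.18 after the adjustment. The PIDD complex genes that activate Casp2 were close to equal, with Pidd1 at 6.78 and 7.05 FPKM and Cradd at 5.09 and 5.94 FPKM.

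Around Apaf1 and Casp9, the 5 mitochondrial factors were expressed and none was apart by 2-fold or more. Their log2 ratios ran from -0.48 for Endog, which encodes a mitochondrial nuclease, to 0.87 for Cycs, which encodes cytochrome c and was at 32.5 and 60.1 FPKM. Diablo, whose product displaces caspases from Xiap, was at 41.7 and 42.1 FPKM. The Diablo level thus differed little, and it was above that of Xiap in both libraries.

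In the deposited values the inflammasome genes around Casp1 were the role with members beyond 2-fold on both sides. Of 5 expressed, 2 were higher and 2 lower by 2-fold or more, where 21.0% and 4.09% of all expressed genes were. After the adjustment 0 were higher and 2 lower, where 5.76% and 5.98% of all expressed genes were. Pycard, the adaptor that joins sensors to Casp1, was at 77.0 FPKM in CH12F3 and 19.9 FPKM in the library labelled Lig4-/- (log2 ratio -1.90, adjusted -2.55). Gsdmd, which encodes the pore-forming protein that Casp1 cleaves, was at 24.1 and 9.43 FPKM (-1.26, adjusted -1.06). Both were lower by 2-fold or more under every pseudocount, scaling and adjustment tried. The DNA sensor gene Aim2 was at 6.62 and 25.4 FPKM (1.79, adjusted 0.76), and Il1b at 1.40 and 4.12 FPKM (1.09, adjusted 0.53). Il1b was also within 2-fold with a pseudocount of 5 FPKM (0.51) and with the overall median log2 ratio set to 0 (0.92). Nlrc4 was at 1.45 and 3.60 FPKM, more than 2-fold apart on the plain FPKM scale. With the pseudocount of 1 FPKM it was within 2-fold (0.91). The other 4 of the 9 listed genes were not expressed. Myeloid cells use many of these genes, and the 5 myeloid markers, of which 4 were expressed, summed to 5.25 FPKM in CH12F3 and 9.77 FPKM in the other library. Most of that difference was Lyz2, at 0.69 and 4.07 FPKM, while Adgre1 was at 1.64 and 1.07 FPKM. Their part in these values was not tested.

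Of the necroptosis genes, which act when Casp8 is blocked, 3 of 4 were expressed. The deubiquitinase gene Cyld was at 3.23 and 8.01 FPKM (1.09, adjusted 0.16). Cyld was also within 2-fold with a pseudocount of 5 FPKM (0.66) and with the overall median log2 ratio set to 0 (0.92). Ripk3 was at 1.40 and 1.05 FPKM. Mlkl, which encodes the pore-forming executor, was at 2.65 and 1.19 FPKM (-0.74, adjusted -1.04), more than 2-fold apart on the plain FPKM scale. Among caspase substrates, 5 of 6 were expressed, and Bid, which Casp8 cleaves to connect the death receptor and mitochondrial routes, was at 11.6 and 31.0 FPKM (1.34, adjusted 1.33). Bid was higher by 2-fold or more under every pseudocount, scaling and adjustment tried. Acin1, which encodes a chromatin-condensing protein, was at 42.9 and 82.3 FPKM (0.92, adjusted 1.13). The DNA fragmentation genes Dffa, at 25.5 and 21.6 FPKM, and Dffb, at 4.92 and 7.77 FPKM, and Parp1, at 241 and 213 FPKM, were within 2-fold.

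**Figure D4:**
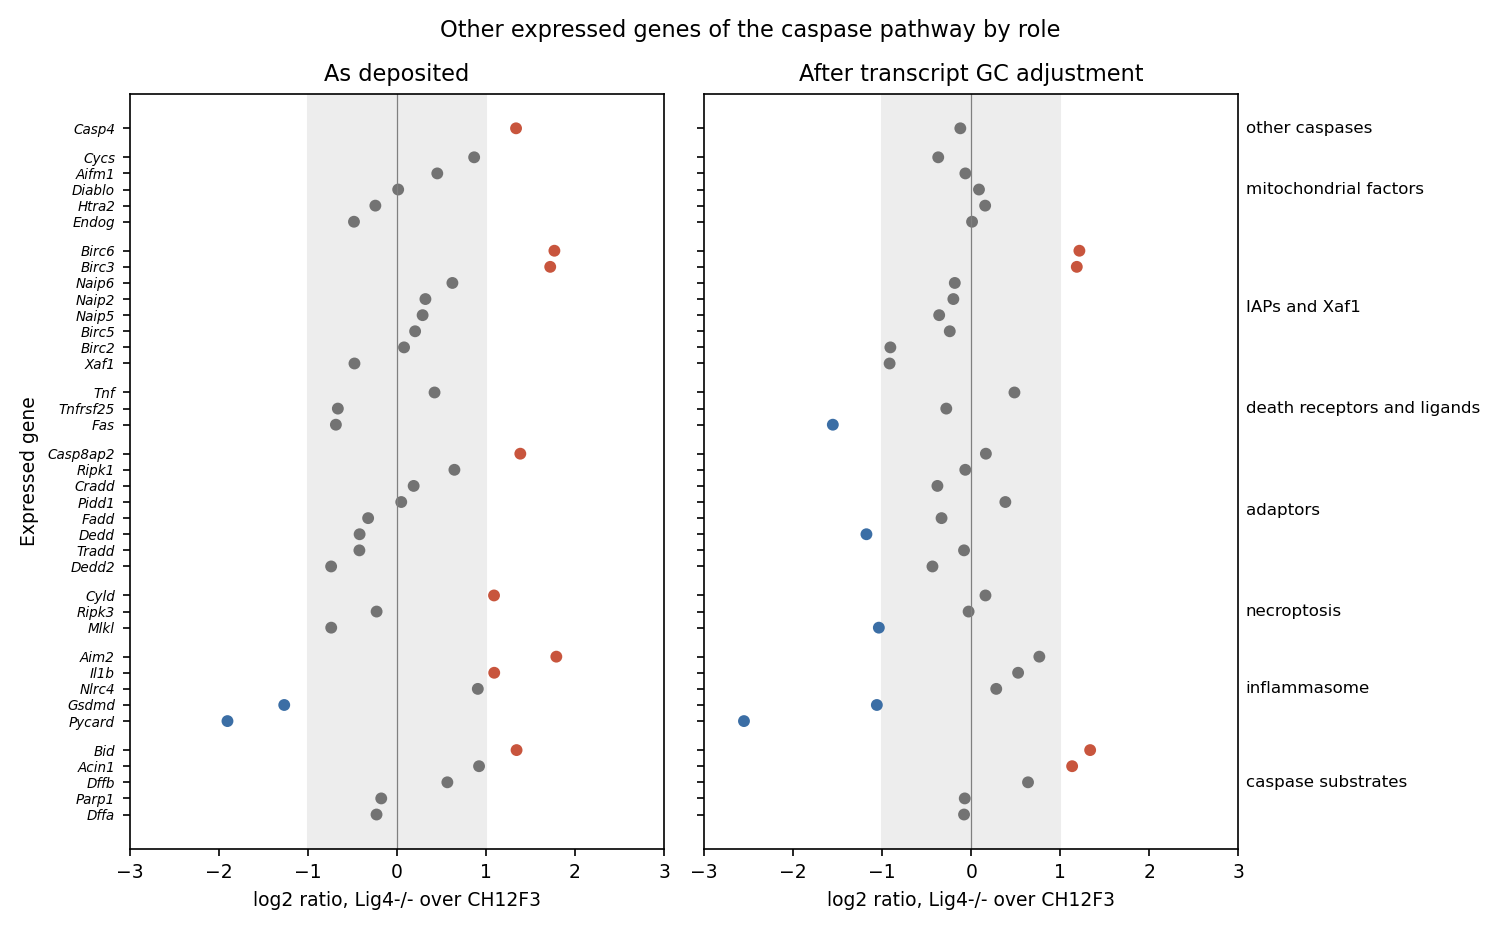
Log2 ratio of the 38 other expressed genes of the pathway, by role, as deposited (left) and after the adjustment for transcript GC content (right); the grey band marks values within 2-fold, and points beyond it are red where higher and blue where lower in the library labelled Lig4-/-. Birc3, Birc6 and Bid lie to the right of the band in both panels, and Pycard and Gsdmd to the left in both.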

How the data were processed

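The authors deposited FPKM per gene with 1 column per library, which were matched to the samples by name. CASAVA, TopHat and the build GRCh38 are named in the submitters' processing notes; that build is human, although the identifiers are mouse Ensembl. The sources used here do not give the program that made the FPKM, its annotation or its strand setting. Of 53873 features, 51912 had Ensembl identifiers and 51719 of these matched GENCODE M21 (GRCm38), which supplied symbols, positions, lengths and GC contents; of identifiers with a common symbol, that of the highest mean was kept. Depth is unknown. Values were not rescaled, the pseudocount was 1 FPKM, and no test was possible with 1 library a group, so genes apart by 2-fold or more were counted. A lowess curve (fraction 0.3) on the GC content of the longest transcript of 11404 expressed genes gave adjusted values. It took up 36.6% of the variance in log2 ratio and centres them near 0 by construction. Steps were tested on simulated data, with 4-fold changes placed on genes of at least 5 FPKM in CH12F3, with and without a straight-line GC trend. That simulation did not cover 2-fold changes or levels as low as those of Xiap and Apaf1 in CH12F3. Named are all 8 members, Lig4, and of each role the expressed genes at least 2-fold apart or, with none, the highest and lowest; other pathway genes were named after their values were seen. Some listed pathway genes are not reported here and enter no count of pathway genes. Members and lists were chosen with earlier results of these data known, so no count supports them independently. Alternatives were pseudocounts of 0.1 and 5 FPKM, 3 rescalings, 4 adjustments for GC content, other expression filters and a 4-fold threshold. Python 3.11.15, pandas 2.3.3 and statsmodels 0.14.6 were used.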

Additional observations from a re-analysis of the deposited data

How the results depend on the processing

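No paired analysis was possible because each line had 1 library. Under 9 alternatives Xiap, Apaf1 and Casp6 stayed above 0, with ranges of 0.24 to 2.65, 0.36 to 1.43 and 0.15 to 0.93, while Casp1 ran from -1.44 to 0.08, Cflar from -0.90 to 0.01, Casp8 from -0.33 to 0.54, Casp2 from -0.01 to 0.56 and Casp9 from -0.11 to 0.29. The pseudocount of 5 FPKM left 1 of the 8 genes, Xiap, at least 2-fold higher, 4 of the other pathway genes higher, and 1104 expressed genes higher and 252 lower. With 0.1 FPKM, 4 pathway genes were lower. With the median set to 0, 777 expressed genes were lower. The lowess adjustment on transcript GC content left 0 of the 8 higher and 1 lower, 4 pathway genes higher and 5 lower, and 657 expressed genes higher; Casp4 turned to -0.12. A linear adjustment on GC content and length left 0 of the 8 higher, 2 pathway genes higher and 5 lower, and 720 expressed genes higher. Added after the data were seen, adjustments on coding-sequence GC content and on the transcript with the longest coding sequence each left 0 of the 8 higher and 1 lower. They left 3 and 4 pathway genes higher, 4 and 6 lower, and 772 and 521 expressed genes higher, and under the first Casp8ap2 turned to -0.18 and Cyld to -0.084. A mean of at least 5 FPKM left out Xiap, so 1 member was higher, with 1589 expressed genes higher. At 4-fold, 1 member, Xiap, was higher, with 358 expressed genes higher and 86 lower, and 0 pathway genes on either side. Apart from fewer genes under stricter settings, the cause of these changes was not tested. Depth limits the low values most, and it is unknown.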
